A study of Cricetulus griseus with 16 samples.

Results

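The enzymes described here cut and rebuild membrane phospholipids. They are the lysophospholipid acyltransferases Lpcat1, Lpcat2, Lpcat3, Lpcat4, Mboat7 and Lclat1, the phospholipases A2 Pla2g4a and Pla2g15, and the phosphoinositide-specific phospholipases C Plcd1 and Plcd3. The members were taken by gene name, ignoring case, from the table of read counts, and all 10 names were found among its 20824 genes. The set was put together partly because Plcd3 and Lpcat1 were seen to change with heat in these same libraries. The values of these 2 genes are therefore given as a description, with no test. Of the other 8 members 7 were tested, since Lpcat2 had no reads.

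RNA was sequenced from CHO cells (ATCC CCL-61), an established line of Chinese hamster ovary origin that grows as a single, immortal cell population and is no model of ovarian tissue. There were 16 libraries in 4 groups, each of 4 cultures lettered A to D. The control cultures stayed at 37 °C, and the others were held at 40 °C (1 h), at 40 °C (6 h) or at 42.5 °C (1 h), with no other agent or genetic change. The comparisons address how mild and moderate hyperthermia alters the transcripts of membrane lipid metabolism. Total counts were between 10504192 and 14668365 per library, and the 42.5 °C libraries held 10504192 to 13202441. The study left out 1 control library without naming it. It was taken to be 37 °C replicate D, from the counts the study printed, and the comparisons use replicates A, B and C. Levels are given as CPM, read counts scaled to the size of the library, with TMM factors that correct the sizes for differences in composition. Levels of different genes are not compared, because CPM grows with transcript length.

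The treatment and the cell type were checked on other genes. Dnajb1, a heat shock co-chaperone, rose on the log2 scale by 1.63 at 40 °C (1 h), 0.65 at 40 °C (6 h) and 3.79 at 42.5 °C (adjusted p = 0.00334, 0.000112 and 4.75e-09, edgeR quasi-likelihood test). The rise at 40 °C (1 h) was uneven between cultures, with 125, 52.9, 113 and 59.6 CPM in replicates A to D. All of these lay above the 26.3 to 32.6 CPM at 37 °C. Hspa5, the main chaperone of the endoplasmic reticulum, rose by 1.13 at 40 °C (6 h) and by 0.29 at 42.5 °C (adjusted p = 1.6e-06 and 0.000433). Vimentin (Vim) and fibronectin (Fn1) had group means of 2010 to 2330 CPM and 331 to 421 CPM. Of the 6 mesenchymal markers listed, S100a4 was also present (15.8 to 36.7 CPM), whereas Thy1 had 0 counts and Col1a1 and Col1a2 at most 4 in any library. Of 5 epithelial markers 3 were found by name, and of these Cldn4 had 0 counts, Epcam at most 1 and Cdh1 20 to 48 (1.7 to 4.14 CPM). Of 5 granulosa markers, Foxl2, Fshr and Cyp19a1 had 0 counts, and Amh (24 to 90 counts) and Inha (12 to 32) were detected in every library. The 5 granulosa markers summed to 3.57 to 6.76 CPM at 37 °C, 4.32 to 5.91 and 4.83 to 8.63 after 1 h and 6 h at 40 °C, and 3.55 to 4.65 at 42.5 °C, and their part in the results was not tested. Blood and endothelial markers, 6 of 7 found, had at most 4 counts each.

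A phospholipid carries 2 fatty acyl chains on a glycerol backbone, and cells change these chains after synthesis in a cycle that Lands described. A phospholipase A2 removes the chain in the middle position, and a lysophospholipid acyltransferase puts another one in its place. The exchange sets how saturated a membrane is, and it also controls how much arachidonic acid is held in phosphatidylinositol or set free for prostaglandin synthesis. Phospholipases C cut between the glycerol and the phosphate: they split phosphatidylinositol 4,5-bisphosphate into diacylglycerol, which activates protein kinase C, and inositol trisphosphate, which releases calcium from the endoplasmic reticulum.

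**Figure D1:**
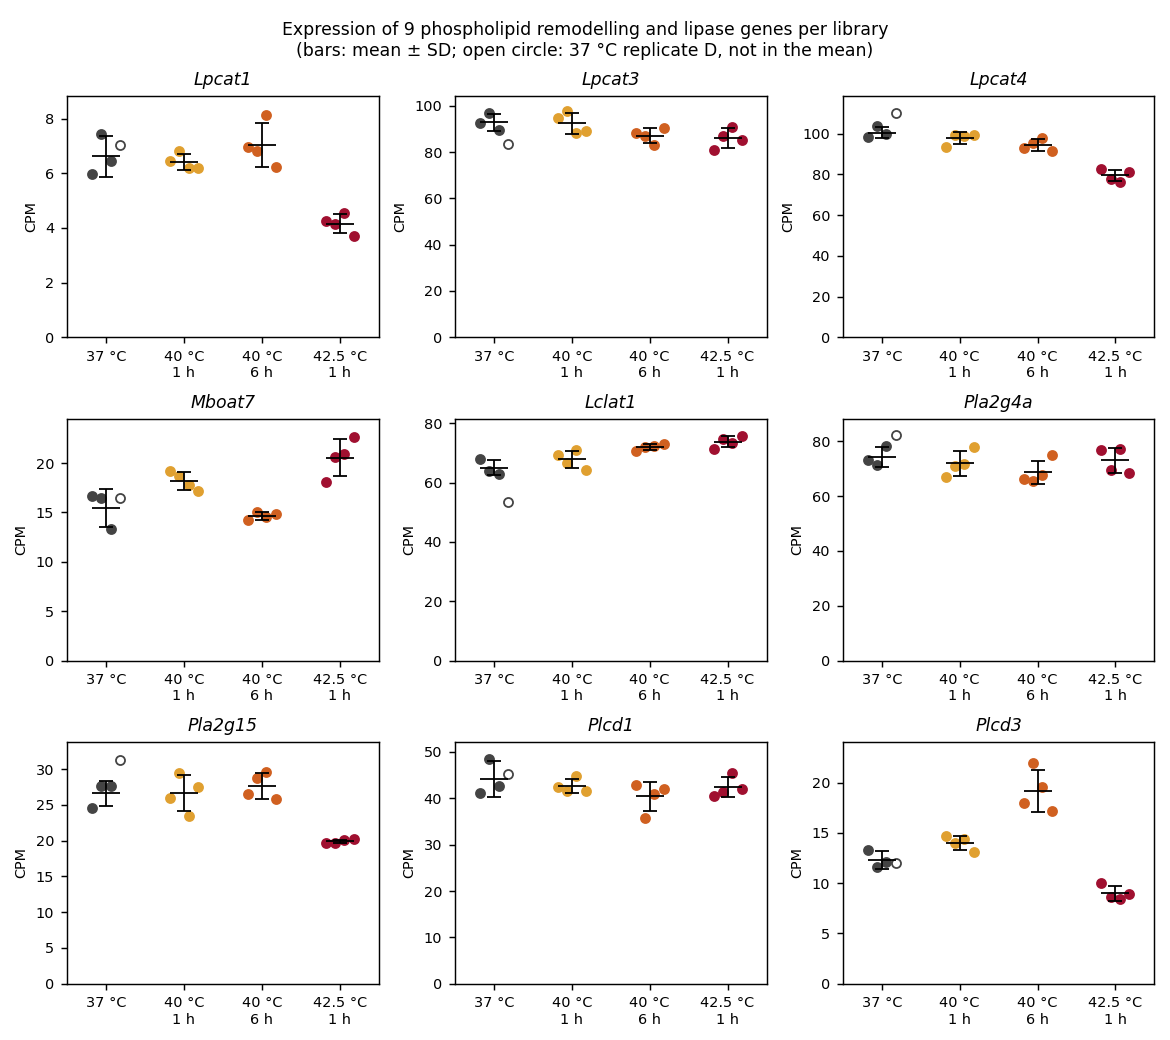
Level of each expressed member in every library, as CPM scaled by TMM, for cultures at 37 °C, at 40 °C (1 h or 6 h), and at 42.5 °C (1 h). Points are libraries, bars are the mean and SD, and the open circle is 37 °C replicate D. The 4 libraries at 40 °C (6 h) are the highest for Plcd3, and the 4 at 42.5 °C are the lowest for Lpcat1, Lpcat4, Pla2g15 and Plcd3.

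Plcd3 (ENSCGRG00001017565), a delta-type phospholipase C that depends on calcium, was higher after 6 h at 40 °C and lower after 1 h at 42.5 °C. Its level at 37 °C was 13.3, 11.6 and 12.1 CPM in replicates A, B and C, and 12 in replicate D. After 1 h at 40 °C it was 14.7, 14.0, 14.4 and 13.1 CPM, which overlaps the controls. After 6 h at 40 °C the 4 libraries held 18, 22, 19.6 and 17.2 CPM, every one above all control libraries and all libraries of 1 h. At 42.5 °C they held 10.0, 8.58, 8.43 and 8.91 CPM, every one below all other libraries. The log2 fold change against 37 °C was 0.185 (SE 0.09) at 40 °C (1 h), 0.63 (SE 0.10) at 40 °C (6 h) and -0.46 (SE 0.105) at 42.5 °C. In fold terms, the level was 1.55-fold higher after 6 h at 40 °C and 1.38-fold lower at 42.5 °C. Replicate B was the highest of the 6 h libraries, and without it the log2 fold change was 0.56, which is under a fold of 1.5. Between 40 °C (6 h) and 42.5 °C (1 h) the level differed 2.14-fold. In RNA pooled over a culture, a lower level in every cell and fewer cells that hold the transcript cannot be told apart.

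Plcd1 (ENSCGRG00001016251), the closest relative of Plcd3 in the set, had 41.2, 48.6 and 42.6 CPM at 37 °C in replicates A to C and 45.3 in D. It had 41.6 to 44.9 CPM at 40 °C (1 h), 35.9 to 42.9 at 40 °C (6 h) and 40.5 to 45.5 at 42.5 °C. All groups overlapped. None of the log2 fold changes against 37 °C passed the test. They were -0.05, with a 95% confidence interval of -0.19 to 0.09, at 40 °C (1 h), -0.13 (-0.29 to 0.03) at 40 °C (6 h) and -0.07 (-0.21 to 0.08) at 42.5 °C, with adjusted p = 0.779, 0.2 and 0.453.

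The read counts of Plcd3 and Plcd1 within a library give a ratio that does not depend on library size. Its own height depends on the lengths of both transcripts, so only its change between groups can be read. No test was made of this ratio, because Plcd3 was chosen for its change with heat, which the ratio repeats. The ratio was 0.282 ± 0.0425 (SD, n = 3) at 37 °C, 0.329 ± 0.0143 (n = 4) at 40 °C (1 h), 0.48 ± 0.0936 (n = 4) at 40 °C (6 h) and 0.213 ± 0.0256 (n = 4) at 42.5 °C. The lowest ratio at 40 °C (6 h), 0.411, was above the highest at 37 °C, 0.324, whereas the 42.5 °C libraries, at 0.186 to 0.247, overlapped the control range of 0.239 to 0.324.

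Lpcat1 (ENSCGRG00001005110), an acyltransferase that prefers saturated chains and makes the dipalmitoyl lipid of lung surfactant, was lower at 42.5 °C. Its level at 37 °C was 5.96, 7.44 and 6.47 CPM in replicates A to C and 7.03 in D. The libraries at 40 °C held 6.46, 6.83, 6.20 and 6.20 CPM after 1 h and 6.97, 6.81, 8.12 and 6.24 CPM after 6 h, and both groups overlapped the controls. At 42.5 °C the 4 libraries held 4.24, 4.14, 4.56 and 3.71 CPM, all below every other library. The transcript is scarce, with 42 to 47 reads per library at 42.5 °C and 75 to 102 at 37 °C. The log2 fold change was -0.04 (SE 0.12) at 40 °C (1 h), 0.08 (SE 0.14) at 40 °C (6 h) and -0.68 (SE 0.14) at 42.5 °C, where the level was 1.6-fold lower. Leaving out 1 library at a time gave -0.76 to -0.59 at 42.5 °C, the smallest of these without 37 °C replicate B.

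Lpcat4 (ENSCGRG00001022366), an acyltransferase of several lysophospholipids including lysophosphatidylethanolamine, fell at 42.5 °C. It had 98.2, 104 and 99.6 CPM in 37 °C replicates A to C and 110 in D. The heated libraries held 93.6, 99.3, 98.9 and 99.3 CPM at 40 °C (1 h), 92.8, 95.2, 97.9 and 91.5 at 40 °C (6 h), and 82.5, 77.8, 76.5 and 80.9 at 42.5 °C. All 4 libraries at 42.5 °C lay below every other library. At 42.5 °C the log2 fold change of -0.35, with an SE of 0.05, passed edgeR's test (adjusted p = 3.09e-05), a level 1.27-fold lower. At 40 °C the changes of -0.04 (1 h) and -0.09 (6 h) did not pass, with adjusted p = 0.736 and 0.162, although all libraries of 6 h lay below all controls.

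Both Lpcat1 and Lpcat4 were lower at 42.5 °C, to different degrees. The ratio of Lpcat1 to Lpcat4 read counts was 0.0658 ± 0.00558 (SD, n = 3) at 37 °C and 0.0525 ± 0.00567 (n = 4) at 42.5 °C. The highest value at 42.5 °C, 0.0596, was just below the lowest at 37 °C, 0.0607. No test was made of this ratio, because Lpcat1 was chosen for its level.

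Lpcat3 (ENSCGRG00001017783) places polyunsaturated chains, arachidonate among them, into phosphatidylcholine. It had 92.6, 96.8 and 89.5 CPM in 37 °C replicates A to C and 83.5 in D, and 81.1, 87.1, 91.0 and 85.0 CPM at 42.5 °C, which overlaps. The log2 fold change at 42.5 °C was -0.12 (SE 0.05, 95% confidence interval -0.23 to -0.01) and did not pass, with adjusted p = 0.0687. Without 42.5 °C replicate C it passed, with adjusted p = 0.0415. At 40 °C the libraries held 88.0 to 97.6 CPM after 1 h and 82.9 to 90.6 after 6 h, and neither difference passed (adjusted p = 0.958 and 0.163).

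Lpcat2 (ENSCGRG00001018067), which makes platelet-activating factor in inflammatory cells, had no read in any of the 16 libraries. The 3 counts that a count of 0 allows amount to 0.204 to 0.296 CPM, depending on the library, and this limit covers counting error only. It was the 1 member that no comparison could test, and the other 9 passed the filter on low counts in all 6 comparisons. A separate gene that the table names Lpcat2b, which is not a member, had 3 to 18 counts per library.

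Mboat7 (ENSCGRG00001010348) esterifies arachidonate to lysophosphatidylinositol, and its level differed between the heat treatments. At 37 °C it had 16.7, 16.4 and 13.3 CPM in replicates A to C and 16.5 in D. It held 19.2, 18.7, 17.8 and 17.1 CPM after 1 h at 40 °C, all above the controls, but the log2 fold change of 0.23 (SE 0.09) did not pass, with adjusted p = 0.259. After 6 h at 40 °C it held 14.2, 15, 14.5 and 14.8 CPM, within the control range. Mboat7 rose at 42.5 °C, where the libraries held 18.1, 20.6, 20.9 and 22.6 CPM, by a log2 value of 0.40 with an SE of 0.10 (adjusted p = 0.00496, edgeR), a level 1.32-fold higher. Replicate C was the lowest of the controls, and without that library the rise was 0.31 (adjusted p = 0.0286).

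Lclat1 (ENSCGRG00001024326), an acyltransferase of the endoplasmic reticulum that acts on lysophosphatidylinositol and on lysocardiolipin, was slightly higher after 6 h at 40 °C and at 42.5 °C. It had 68.1, 64.1 and 63.1 CPM in 37 °C replicates A to C and 53.6 in D, which was the lowest of all libraries. It held 69.5, 66.6, 71.0 and 64.3 CPM at 40 °C (1 h), 70.9, 72.0, 72.5 and 73.1 at 40 °C (6 h), and 71.4, 74.8, 73.6 and 75.9 at 42.5 °C. Lclat1 rose at 42.5 °C by a log2 value of 0.175 with an SE of 0.05 (adjusted p = 0.0105, edgeR), a level 1.13-fold higher. This call was lost without 37 °C replicate B (adjusted p = 0.0505) and with all 4 control libraries (0.0638), where the log2 fold change was 0.25. At 40 °C (6 h) the value was 0.14 (SE 0.05, adjusted p = 0.0472), which passed narrowly and was lost when any 1 of 37 °C replicates B or C or 6 h replicates B, C or D was left out (adjusted p up to 0.15). This call was kept under 5 of 14 alternatives. After 1 h at 40 °C the value was 0.06 (SE 0.05), which did not pass (adjusted p = 0.657, edgeR), and the group overlapped the controls.

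Mboat7 and Lclat1 can use the same acceptor lipid, and their ratio of read counts was 0.237 ± 0.0238 (SD, n = 3) at 37 °C, 0.268 ± 0.0135 (n = 4) at 40 °C (1 h), 0.203 ± 0.00404 (n = 4) at 40 °C (6 h) and 0.278 ± 0.0191 (n = 4) at 42.5 °C. The values of 6 h, 0.2 to 0.209, all lay below those of both 1 h treatments, and the groups at 37 °C and 42.5 °C overlapped. The ratio of Mboat7 to Lpcat3 was 0.166 ± 0.0163 (n = 3) at 37 °C and 0.239 ± 0.0191 (n = 4) at 42.5 °C, and here the groups did not overlap. These ratios were not tested.

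Pla2g15 (ENSCGRG00001021563), the lysosomal phospholipase A2, fell at 42.5 °C. It had 24.6, 27.6 and 27.7 CPM in 37 °C replicates A to C and 31.3 in D. At 40 °C the libraries held 26, 29.5, 23.5 and 27.5 CPM after 1 h and 26.6, 28.7, 29.6 and 25.8 after 6 h, overlapping the controls. The 4 libraries at 42.5 °C held 19.7, 19.6, 20.1 and 20.2 CPM, close to each other and below every other library. The log2 fold change was -0.43 with an SE of 0.075 (adjusted p = 0.000306, edgeR), a level 1.34-fold lower. It was 0.00 (95% confidence interval -0.17 to 0.18) at 40 °C (1 h) and 0.05 (-0.11 to 0.22) at 40 °C (6 h), neither of which passed.

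Pla2g4a (ENSCGRG00001021132) encodes the cytosolic phospholipase A2 that releases arachidonic acid when calcium rises. Its level was 73.1, 71.3 and 78.4 CPM in 37 °C replicates A to C and 82.3 in D, 66.9 to 77.9 at 40 °C (1 h), 65.6 to 74.9 at 40 °C (6 h) and 68.5 to 77.2 at 42.5 °C. The groups overlapped throughout. The log2 fold change was -0.05, -0.11 and -0.03 in that order of treatments, with adjusted p = 0.761, 0.153 and 0.683. At 42.5 °C the 95% confidence interval was -0.15 to 0.09.

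The ratio of Pla2g15 to Pla2g4a read counts, the lysosomal against the cytosolic enzyme, was 0.359 ± 0.0259 (SD, n = 3) at 37 °C, 0.371 ± 0.0386 (n = 4) at 40 °C (1 h), 0.405 ± 0.044 (n = 4) at 40 °C (6 h) and 0.273 ± 0.0182 (n = 4) at 42.5 °C. The highest ratio at 42.5 °C was 0.295, and the lowest in any other group was 0.327.

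**Figure D2:**
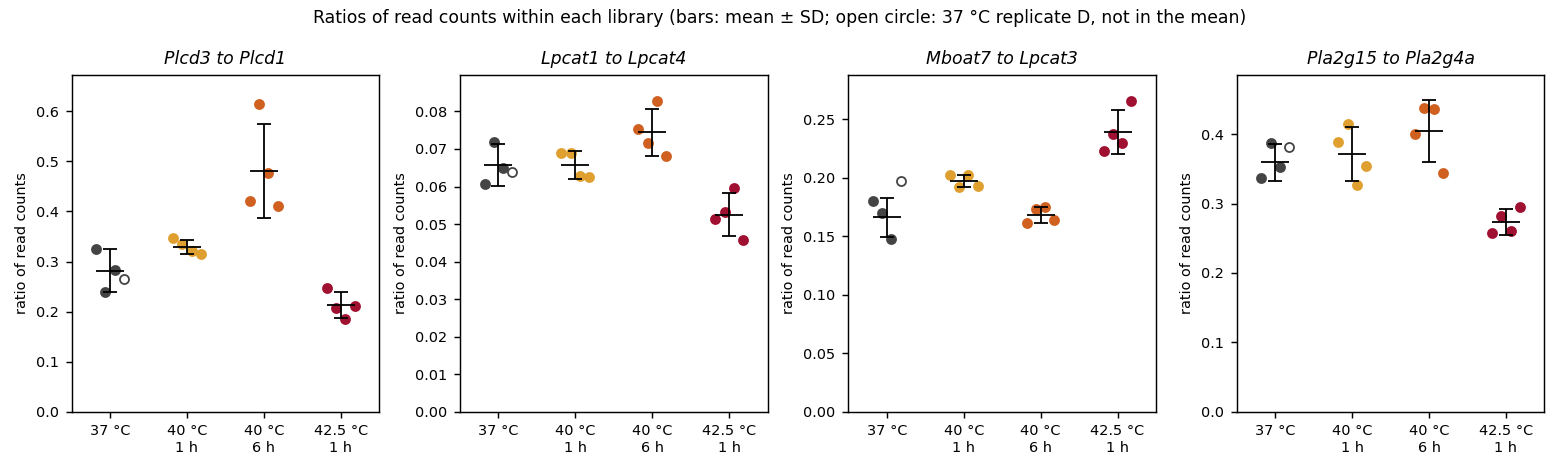
Ratio of the read counts of pairs of members within each library, by treatment, with bars for the mean and SD and an open circle for 37 °C replicate D. The height depends on transcript length, and the change between groups is what can be read. Plcd3 to Plcd1 is highest at 40 °C (6 h) (0.48 on average), and Pla2g15 to Pla2g4a is lowest at 42.5 °C (0.273). Plcd3 and Lpcat1 were selected on their values.

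Replicate D of the 37 °C group stood apart for some members. It lay inside the range of replicates A to C for Plcd3, Lpcat1, Mboat7 and Plcd1, below it for Lclat1 and Lpcat3, and above it for Lpcat4, Pla2g4a and Pla2g15. With D included, Lpcat4, Pla2g15 and Mboat7 still passed at 42.5 °C, the last with adjusted p = 0.0288.

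**Figure D3:**
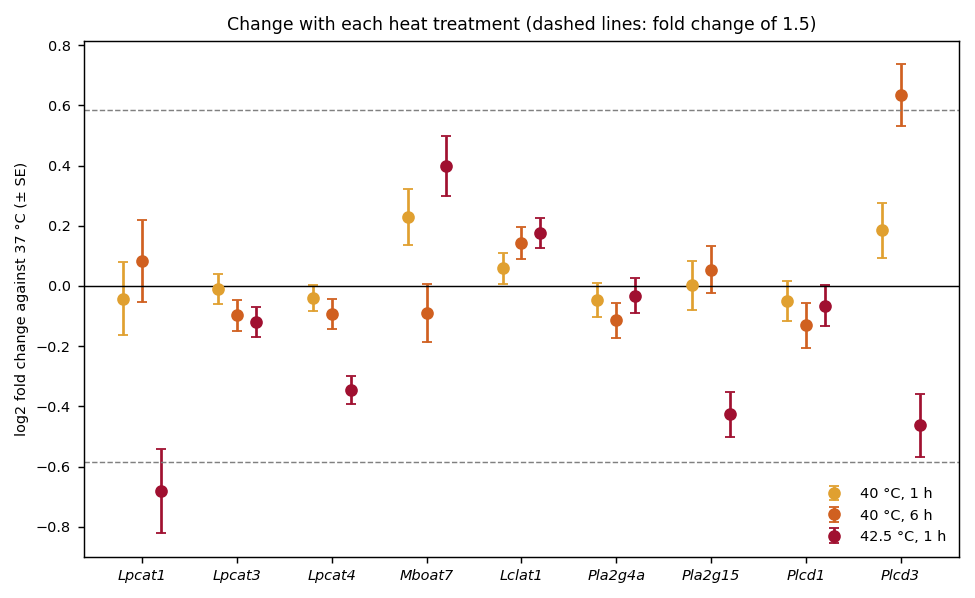
Log2 fold change of the 9 expressed members against 37 °C (replicates A to C) for each heat treatment, with bars of 1 SE. Dashed lines mark a fold change of 1.5. Plcd3 at 40 °C (6 h) (0.63) and Lpcat1 at 42.5 °C (-0.68), the 2 members selected on their values, lie beyond the lines, and the largest change among the others is that of Pla2g15 at 42.5 °C (-0.43).

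Counted together, none of the 7 tested members reached the threshold of the study, an adjusted p under 0.05 with a fold change of at least 1.5, in any of the 3 comparisons with 37 °C. The share of all tested genes that did was 0.334% at 40 °C (1 h), 3.11% at 40 °C (6 h) and 7.51% at 42.5 °C. By adjusted p alone, 0, 1 and 4 of the 7 members passed with edgeR, against 1.64%, 29.4% and 43.1% of all tested genes, and at an unadjusted p under 0.05 there were 1, 1 and 5, against 14.8%, 41.0% and 50.7%. DESeq2's Wald test called 0 members with the fold change, and 0, 0 and 4 by adjusted p alone. The 4 that passed at 42.5 °C were Mboat7 and Lclat1, which rose, and Lpcat4 and Pla2g15, which fell. The share of members was not tested against that of all genes. The median log2 fold change of the 7 was -0.01, -0.09 and -0.07.

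Between the heated groups, Mboat7 separated the durations at 40 °C. It was lower after 6 h than after 1 h by 0.315 in log2 units, with an SE of 0.08 (adjusted p = 0.0108, edgeR), in 4 of 4 libraries, and it was the 1 of 7 tested members to pass, where 18.5% of all genes did. With the fold change of 1.5 no member was called, against 1.28% of all genes. DESeq2 gave 1 by adjusted p alone and 0 with the fold change. Plcd3 was 1.37-fold higher after 6 h than after 1 h, with no overlap.

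Comparing 42.5 °C with 40 °C at the same duration of 1 h, Lpcat4 was lower by 0.305 in log2 units, with an SE of 0.04 (adjusted p = 6.83e-05, edgeR), and Pla2g15 by 0.43 (SE 0.08, adjusted p = 0.000592). Both were lower in 4 of 4 libraries. They were the 2 of 7 tested members that passed, where 36.1% of all genes did, and none of the 7 reached the fold change of 1.5 as well, where 5.27% did. Mboat7 and Lclat1, both higher at 42.5 °C than at 37 °C, differed by 0.17 and 0.12 from 40 °C (1 h) and did not pass (adjusted p = 0.123 and 0.064). Without 42.5 °C replicate A both passed, with adjusted p = 0.0394 and 0.0477. Lpcat1 was 1.56-fold lower and Plcd3 1.57-fold lower at 42.5 °C than at 40 °C (1 h), and neither overlapped.

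Against 40 °C (6 h), the 42.5 °C libraries had lower Lpcat4 by 0.25 (SE 0.05, adjusted p = 0.000334), lower Pla2g15 by 0.48 (SE 0.07, adjusted p = 5.24e-05) and higher Mboat7 by 0.485 (SE 0.09, adjusted p = 0.000235), all by edgeR's test. These 3 of 7 compare with 47.0% of all genes by adjusted p alone, and 0 of 7 with the fold change of 1.5 compare with 8.25%. DESeq2 likewise gave 3 and 0. Temperature and duration both differ in this comparison. At an unadjusted p under 0.05, edgeR gave 1 member between the durations at 40 °C, 4 between 42.5 °C and 40 °C (1 h), and 3 between 42.5 °C and 40 °C (6 h), where 32.3%, 45.9% and 53.9% of all genes did so. These comparisons share libraries with each other and with those against 37 °C.

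The likeness of 2 genes' patterns was measured as the root mean square difference of their log2 CPM, each relative to its mean at 37 °C, over the 12 heated libraries. It is a description over libraries that share their treatment and depth. Among the members, Lpcat3 and Plcd1 (0.09), Pla2g4a and Plcd1 (0.09) and Lpcat3 and Pla2g4a (0.11) were closest, the 3 members with no passing difference. Next came Lpcat4 and Pla2g15 (0.13), which both fell at 42.5 °C. Farthest apart were Mboat7 and Plcd3 (0.655), whose log2 fold changes had opposite signs at 40 °C (6 h) and at 42.5 °C, and Lpcat1 and Mboat7 (0.654).

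Among all 10627 genes compared, those nearest to Plcd3 were Plekho1 (0.16), Mogs (0.17), Pank4 (0.17), Zfp219 (0.17) and Snx33 (0.17). Mogs encodes the first glucosidase of N-glycan trimming in the endoplasmic reticulum, and Snx33 a sorting nexin. Mogs had mean log2 differences from 37 °C of 0.20 at 40 °C (1 h), 0.45 at 40 °C (6 h) and -0.31 at 42.5 °C. Snx33 had 0.07, 0.52 and -0.57. Nearest to Lpcat1 were Cntnap1 (0.07), Usp20 (0.08), Ano8 (0.10), Kank2 (0.11) and Brat1 (0.11). Usp20 is a ubiquitin-specific protease and Ano8 a protein of the anoctamin family. At 42.5 °C their mean log2 differences from 37 °C were -0.68 for Cntnap1, -0.70 for both Usp20 and Brat1, -0.56 for Ano8 and -0.57 for Kank2.

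The wider pathway was described through 8 lists of 163 names in all. Of these, 145 were found besides Plcd3 and Lpcat1, and 103 passed the filter in each comparison with 37 °C. The lists include the other members. At 40 °C (1 h), 0 of the 103 were called and 0 passed by adjusted p alone with edgeR, where 0.334% and 1.64% of all genes did. There, 10 had an unadjusted p under 0.05, where 14.8% of all genes did, and DESeq2 called 0. With the fold change, edgeR called 1 at 40 °C (6 h) and 3 at 42.5 °C. These are 0.971% and 2.91% of the list, against 3.11% and 7.51% of all genes. At 40 °C (6 h), 16 rose and 11 fell by adjusted p alone, 26.2% of the list against 29.4% of all genes. At 42.5 °C, 15 rose and 24 fell, 37.9% against 43.1%. The median log2 fold change was -0.02 and -0.06, where that of all genes was 0.00 in both.

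Of the 8 other phospholipases C tested, Plcd1 among them, 0 rose and 4 fell at 40 °C (6 h), where Plcd3, chosen for its change, was higher. By adjusted p alone 50% of the list passed, against 29.4% of all genes, and these shares were not compared by a test. Those that fell were Plcxd2 by 0.56 on the log2 scale (adjusted p = 0.000459, edgeR), Plcb1 by 0.35 (0.0239), Plcb3 by 0.27 (0.00315) and Plcg1 by 0.18 (0.00396). Plcb1 and Plcb3 are activated by G proteins and Plcg1 by receptor tyrosine kinases. The list's median was -0.22. These falls are relative to 37 °C replicates A to C. Replicate D held 11.9 CPM of Plcxd2, 10.7 of Plcb1, 43.4 of Plcb3 and 222 of Plcg1. The libraries of 6 h held 11.9 to 14.5, 11.9 to 14.5, 41.3 to 46.2 and 264 to 276 CPM in that order. Replicate D thus lay within or below the range of 6 h for each of these genes. At 42.5 °C, where Plcd3 was lower, Plcb3 and Plcg1 fell, by 0.42 and 0.11 (adjusted p = 0.000159 and 0.0167), and the other 6 did not pass. The passing share there was 25%, against 43.1% of all genes. Plcxd2 stood at 0.17 there (adjusted p = 0.163).

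Of the 12 tested acyltransferases apart from Lpcat1, 2 rose and 2 fell at 40 °C (6 h), 33.3% against 29.4% of all genes. Lclat1 and Mboat1, an acyltransferase of lysophosphatidylserine, rose, the second by 0.15 (adjusted p = 0.0435). Agpat2 and Agpat5 fell by 0.52 and 0.28 (adjusted p = 0.003 and 0.00331). At 42.5 °C, 4 rose and 2 fell, 50% against 43.1% of all genes. Beside Mboat7 and Lclat1, Agpat4 and Lpgat1 rose, by 0.27 and 0.23 (adjusted p = 0.00201 and 0.0483), and beside Lpcat4, Agpat1 fell by 0.21 (adjusted p = 0.0115). Agpat1 and Agpat2 form phosphatidic acid from lysophosphatidic acid, an early step of phospholipid synthesis.

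Of the 13 phospholipases A tested, 2 rose and 1 fell at 40 °C (6 h), and 2 rose and 2 fell at 42.5 °C. The passing shares at these treatments were 23.1% and 30.8%, against 29.4% and 43.1% of all genes. Pnpla8, a calcium-independent phospholipase of mitochondria and peroxisomes, rose in both, by 0.24 and 0.27 (adjusted p = 0.0117 and 0.0021), and Pafah1b3 fell in both, by 0.25 and 0.155 (0.00459 and 0.0227). Ddhd1 rose by 0.18 (0.0313) at 40 °C (6 h). Pla2g7, which degrades platelet-activating factor, rose by 0.355 (0.0316) at 42.5 °C, where Pla2g15 fell. Among 10 lysophospholipases and glycerophosphodiesterases, Pnpla7 rose and Gpcpd1 fell at 40 °C (6 h), by 0.48 and 0.36 (0.00606 and 0.00898). At 42.5 °C Lypla2 fell by 0.50 (5.56e-06) and Pnpla6 fell by 0.345 (5.67e-05), whereas Abhd12, which degrades lysophosphatidylserine, rose by 0.21 (0.0183). Of these 10 genes 20% passed at 40 °C (6 h) and 30% at 42.5 °C, against 29.4% and 43.1% of all genes. All p values in this paragraph are adjusted p of edgeR's test. Of 4 phospholipases D tested, Pld1 rose at 42.5 °C by 0.23 (0.0285), and 0 passed at 40 °C (6 h). These are 25% and 0%, against 43.1% and 29.4% of all genes.

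The genes that use the products of these enzymes moved as follows. Ptgs2, the inducible cyclooxygenase that turns arachidonic acid into prostaglandin H2, had 16, 16.3 and 16.2 CPM at 37 °C and 27.2, 33.3, 28.4 and 48.6 CPM at 42.5 °C, and 13.6 in 37 °C replicate D. It rose at 42.5 °C by a log2 value of 1.09 with an SE of 0.16 (adjusted p = 6.64e-05, edgeR). It was the 1 gene of the 8 lists called higher there. In the RefSeq annotation, on another assembly, Ptgs2 lies next to Pla2g4a, whose own level did not pass. At 40 °C (6 h) Ptgs2 rose by 0.37, Ptges3 by 0.36, Lta4h by 0.30 and Acsl3 by 0.235, and Acsl1 and Acsl6 fell, so that 6 of the 7 tested genes for arachidonate activation and oxidation passed, where 29.4% of all genes did. At 42.5 °C 2 of the 7 passed, Ptgs2 and Ptges3 (0.44, adjusted p = 0.000506), where 43.1% of all genes did. Acsl6, the 1 gene of the 8 lists called at 40 °C (6 h), stood at -0.63 (adjusted p = 0.0487), at 22 to 32 reads in the libraries of that group and 30 to 56 in the controls, and the groups overlapped. The call was kept under 6 of 14 alternatives and lost, among others, with DESeq2's Wald test, with all 4 controls and without 37 °C replicate A or C or 6 h replicate C or D (adjusted p of 0.0889 to 0.235). Ptges3 is also a co-chaperone of Hsp90.

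In the phosphatidylinositol cycle, 2 of 30 tested genes rose at 40 °C (6 h) and 0 fell, and at 42.5 °C 4 rose and 10 fell, with a median of -0.11. By adjusted p alone, 6.67% and 46.7% of the list passed at these treatments, against 29.4% and 43.1% of all genes. Dgkq, a kinase that converts the diacylglycerol of phospholipase C into phosphatidic acid, had 12.1 to 15.6 CPM in 37 °C replicates A to C and 6.78 to 9.18 at 42.5 °C. It was called lower, at -0.735 in log2 units with an SE of 0.13 (adjusted p = 0.000294, edgeR). Replicate D of the 37 °C group held 8.45 CPM, within the range at 42.5 °C, and with all 4 controls Dgkq was no longer called (-0.59, adjusted p = 0.0588). Among the receptors that open calcium stores in response to inositol trisphosphate, Itpr1 and Itpr2 rose by 0.17 and 0.21 and Itpr3 fell by 0.26 at 42.5 °C (adjusted p = 0.0054, 0.00394 and 0.000578). Pi4k2a, which makes phosphatidylinositol 4-phosphate, rose by 0.27 at 40 °C (6 h) and fell by 0.33 at 42.5 °C (adjusted p = 0.0169 and 0.00583).

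In the synthesis of phosphatidylcholine and phosphatidylethanolamine, 5 of 19 tested genes rose and 1 fell at 40 °C (6 h), and 1 rose and 6 fell at 42.5 °C. The passing shares were 31.6% and 36.8%, against 29.4% and 43.1% of all genes. Pcyt2, which controls the rate of phosphatidylethanolamine synthesis, rose by 0.27 at 40 °C (6 h) and fell by 0.19 at 42.5 °C (adjusted p = 0.0017 and 0.0113, edgeR), and Lpin2 did the same, by 0.22 and 0.16 (0.0147 and 0.0417). Cept1 rose by 0.29 (0.00181) in the first, and Pisd, which makes phosphatidylethanolamine in mitochondria, fell by 0.365 (0.00078) in the second. Lpin3 was called lower at 42.5 °C (-0.76, adjusted p = 0.0439) at 8 to 15 reads per library there, but its groups overlapped. The call was kept under 2 of 14 alternatives and lost with DESeq2's Wald test (0.154), with all 4 controls (0.18) and without any 1 library other than 42.5 °C replicate C (0.0635 to 0.128).

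**Figure D4:**
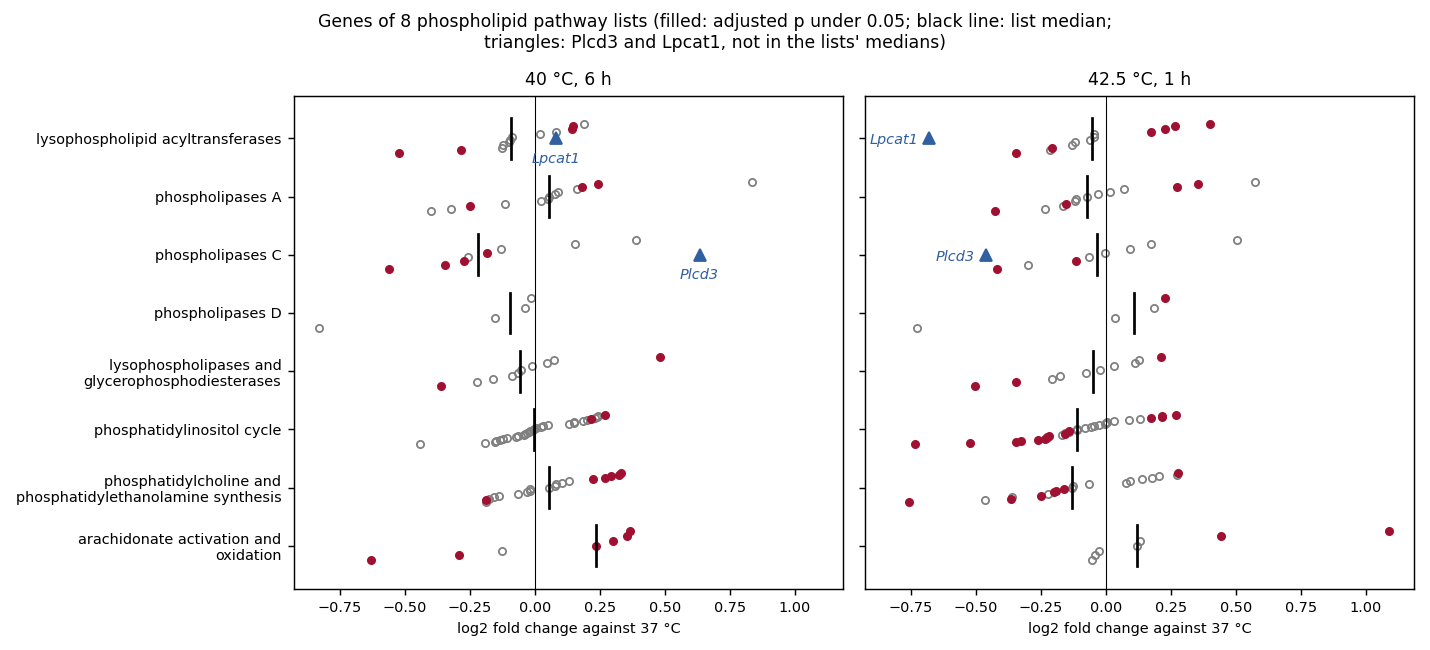
Log2 fold change against 37 °C of each tested gene in 8 phospholipid pathway lists, at 40 °C (6 h) (left) and 42.5 °C (1 h) (right). Filled points passed at an adjusted p under 0.05, black lines are list medians, and triangles are Plcd3 and Lpcat1, which are in no median. Plcd3 at 40 °C (6 h) (0.63) lies to the right of all phospholipases C, whose median is -0.22.

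In the RefSeq annotation 9 of the 10 members were matched by symbol, and of these Lpcat2 alone overlaps another gene, Capns2. Plcd3 lies between Acbd4 and Nmt1. Acbd4 stood at a log2 fold change of 0.01 at 40 °C (6 h) (adjusted p = 0.94) and fell by 0.24 at 42.5 °C (adjusted p = 0.0184). Whether reads were counted by strand is not given in the sources used here.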

How the data were processed

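CHO cells were cultured in 4 groups of 4, and the RNA of each culture was sequenced as paired ends after TruSeq library preparation. According to the methods, the authors mapped the reads to CHOK1GS_HDv1 and counted them per gene in CLC Genomics Workbench. The deposited values are raw read counts per gene and library, without normalization, of 20824 genes, of which 4423 are listed by identifier only. Annotation release, strand setting and treatment of multiply mapped reads are not given in the sources used here.

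Group comparisons used edgeR 4.0.16 in R 4.3.3: default filter on low counts, TMM scaling, quasi-likelihood test fitted to the 2 groups compared, and Benjamini-Hochberg adjustment over all tested genes (10427 to 10499). SE was derived from the log2 fold change and the F statistic. The control library left out was taken to be 37 °C replicate D, the 1 library whose counts differ from those the study printed. Of 920 counts, 920 were identical for each of the other 15 libraries and 36 for D. This mismatch does not by itself show that D was the library left out. Adjusted p values come from tests that weigh a group difference against the spread between cultures of this 1 line. Named genes are the members, the 5 nearest genes in pattern of Plcd3 and Lpcat1, and genes of the 8 pathway lists. Of the lists, all genes called with the fold change are named, and only a selection of those that passed by adjusted p alone. Gene neighbours come from RefSeq on CriGri-PICRH-1.0, another assembly, by symbol only. Alternatives were DESeq2 1.42.0 (size factors, Wald test), no filter or at least 10 counts in every library, all 4 controls, 1 fit over all 4 groups, the letter as a replicate block, each library left out and, for the pattern measure, a prior count of 0.5 in place of 2. The tests were run on simulated counts with planted changes larger than those of the tested members, so changes of the members' size were not checked. The members and lists were chosen with earlier results of these data known.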

Additional observations from a re-analysis of the deposited data

Results flagged for a closer look

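Among 36 pairs of member and group, 2 held a library far from the other 3 by Dixon's criterion, which chance alone meets in about 1 of 20 groups. Lpcat4 was lowest in 40 °C, 1 h replicate A, at 93.6 CPM, with a gap that took a share of 0.916 of the group's range. Mboat7 was lowest in 37 °C replicate C, at 13.3 CPM, with the same share of 0.916, and without that library its rise at 42.5 °C was 0.31 on the log2 scale (adjusted p = 0.0286, edgeR).

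Responses that differed between heat treatments by a test of the difference itself were those of 3 members. Mboat7 differed between 6 h and 1 h at 40 °C (-0.315 on the log2 scale, adjusted p = 0.0108) and between 42.5 °C and 40 °C (6 h) (0.485, adjusted p = 0.000235). Lpcat4 at 42.5 °C was below both durations at 40 °C (-0.305 against 1 h and -0.254 against 6 h), and so was Pla2g15 (-0.428 and -0.483), with adjusted p of edgeR's test of at most 0.000592. Plcd3 lay above the control mean in every library at 40 °C and below it in every library at 42.5 °C. Its log2 difference was -0.648 against 40 °C (1 h) and -1.100 against 40 °C (6 h), and these differences were not tested.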

How the results depend on the processing

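For the 7 tested members, 549 of the log2 fold changes recomputed under an alternative kept direction and side of the threshold, 6 gained and 11 lost significance, and 22 changed sign, none of which passed the test. With all 4 controls Lpcat3 and Pla2g15 stood at 0.028 and -0.061 at 40 °C (1 h) and Pla2g15 at -0.008 at 40 °C (6 h). With 1 library left out, values ranged at 40 °C (1 h) from -0.037 to 0.022 for Lpcat3, -0.054 to 0.055 for Pla2g15 and -0.10 to 0.028 for Plcd1, and at 42.5 °C from -0.059 to 0.008 for Pla2g4a and -0.117 to 0.011 for Plcd1. Against 40 °C (1 h), Pla2g4a at 42.5 °C ranged from -0.019 to 0.054 and Plcd1 from -0.043 to 0.011, and against 40 °C (6 h), Lpcat3 from -0.053 to 0.004. Each of the 168 values of Plcd3 and Lpcat1 moved by less than the spread between cultures. Lpcat4, Pla2g15 and Mboat7 at 42.5 °C passed under all 14 alternatives, and Lclat1 under 12. The number of members passing by adjusted p alone at 40 °C (6 h), 1 (Lclat1), became 0 with DESeq2's Wald test, with no filter and with all 4 controls, and ranged from 0 to 1 with 1 library left out. Between 42.5 °C and 40 °C (1 h) it was 2 to 4 with 1 library left out, against 2, the highest without 42.5 °C replicate A. The count of pathway genes called at 40 °C (6 h), 1 (Acsl6), became 0 with DESeq2's Wald test, 2 with no filter and 0 with all 4 controls, and ranged from 0 to 3 with 1 library left out: 0 without 37 °C replicate A or 6 h replicate D, 2 without 37 °C replicate B or 6 h replicate B or C, and 3 without 6 h replicate A. At 42.5 °C it was 1 in place of 3 with all 4 controls, 2 with DESeq2's Wald test and 2 to 4 with 1 library left out. The cause of these shifts was not tested.

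With the letter as a replicate block, the count of pathway genes called at 40 °C (6 h) was 0, Lclat1 stood at 0.14 there (adjusted p = 0.0758) and Pla2g4a at -0.16 passed (adjusted p = 0.0369). At 40 °C (1 h) the block gave 0.01 for Lpcat3 and -0.009 for Pla2g15. Other calls of members were the same. The letters were not found to pair the cultures: same-letter libraries correlated after removal of group means with a mean r of 0.05 over 21 pairs (-0.05 to 0.17), and different letters with -0.02 over 63. At 42 to 103 reads per library, counting error limits Lpcat1 most.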
